A study of Mus musculus with 6 samples.

Results

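The cytosolic Hsp70 chaperones, their co-chaperones and the heat-shock factors were followed in mouse embryonic stem (ES) cells separated by a fluorescent reporter, 2C::tomato. The set held 10 genes: the stress-inducible Hsp70 genes Hspa1a and Hspa1b, the constitutive Hsp70 gene Hspa8, Hsph1, Dnajb1, Hspb1, Hsp90aa1, Bag3 and the transcription factors Hsf1 and Hsf2. Every probeset annotated with one of these symbols was taken, alone or among several symbols, which gave 16 of the 35556 probesets on the array for 9 of the 10 genes. No probeset is listed for Hsf1, so Hsf1 was not analysed here.

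Total RNA came from 3 samples of reporter-positive cells (2C::tomato+) and 3 of reporter-negative cells (2C::tomato-), collected by fluorescence sorting and numbered 1 to 3 in each group. All 6 titles read WT; the shared protocol names vehicle or 4OHT for deleting Kdm1a, and the titles do not say which the cells received. Gelatin and ES-KOSR medium were used for growth. Separate cultures are not stated for the samples of a group, and the p-values then speak only of the spread over these samples, which may be technical. As background, in published work with this reporter a promoter of an endogenous retrovirus that is active in the two-cell embryo drives the tomato protein, and few ES cells of a culture express it at a time. Values are log2 expression after robust multi-array averaging (RMA) by the authors.

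Hsp70 proteins bind exposed hydrophobic stretches of unfolded proteins in a cycle driven by ATP. J-domain proteins such as Dnajb1 hand them substrates and trigger ATP hydrolysis, nucleotide exchange factors such as Hsph1 and Bag3 release ADP, Hsp90 takes over part of the clients, and small heat-shock proteins such as Hspb1 hold unfolded proteins without ATP. Hsf1 is the main activator of these genes after heat or proteotoxic stress, and it binds heat-shock elements, inverted repeats of GAA. In the mouse embryo the inducible Hsp70 genes are among the first genes transcribed from the zygotic genome, without any heat shock.

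The upstream sequences of the Hspa1 pair and of Hspb1 are shown because the pair gave the largest differences among the heat-shock genes, while Hspb1, which also carries matches to the element, differed by at most 0.02. They are the 250 bases before the annotated start, 5′ to 3′, from RefSeq on GRCm38.p6. Hspa1a lies at chr17:34972157-34972406 on the minus strand, Hspa1b at chr17:34959239-34959488 on the minus strand and Hspb1 at chr5:135887669-135887918 on the plus strand. Capitals mark matches to GAANNTTC or TTCNNGAA, each of which is its own reverse complement, so 1 pass covers both strands.
Hspa1a: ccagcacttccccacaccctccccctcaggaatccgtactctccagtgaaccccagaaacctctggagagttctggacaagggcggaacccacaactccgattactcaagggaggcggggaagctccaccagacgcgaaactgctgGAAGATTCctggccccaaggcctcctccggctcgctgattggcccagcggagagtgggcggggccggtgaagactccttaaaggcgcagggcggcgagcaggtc
Hspa1b: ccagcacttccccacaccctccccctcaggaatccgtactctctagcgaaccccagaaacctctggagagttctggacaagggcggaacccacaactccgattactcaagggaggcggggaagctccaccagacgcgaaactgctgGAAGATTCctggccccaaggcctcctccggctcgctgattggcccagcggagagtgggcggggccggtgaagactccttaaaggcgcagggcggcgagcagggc
Hspb1: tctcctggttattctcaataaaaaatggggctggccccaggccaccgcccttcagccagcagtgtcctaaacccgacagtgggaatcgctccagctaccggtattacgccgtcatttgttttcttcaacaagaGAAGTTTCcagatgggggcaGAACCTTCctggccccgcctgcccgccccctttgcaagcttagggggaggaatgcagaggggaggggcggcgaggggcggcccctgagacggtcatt

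The Hspa1a and Hspa1b stretches were equal at 247 of 250 bases (98.8%). With positions counted from 1 at the 5′ end of the stretch, and Hspa1b given before Hspa1a, the differences were T44C, C47T and G249T, none of them in the match, which lies 104 to 97 bases before the start in both genes. Promoter entries were found for 7 of the 10 genes, 9 entries in all. A match occurred in 5 of the 9 entries, against 12.8% of all 32851 promoter entries. These entries belong to 4 genes, Hspa1a, Hspa1b, Hsph1 and Hspb1, with 2 matches in Hspb1. The Hspa1 stretches are near-equal copies and the Hsph1 entries overlap, so the 5 are not separate hits. Dnajb1, Bag3 and Hsf2 had no match in this window. A CCAAT box (CCAAT or ATTGG) occurred in the entries of both Hspa1 genes, Hsph1 and Hsf2 and in 1 of the 2 Dnajb1 entries, and not in those of Hspb1 and Bag3, against 33.8% of all entries. A match describes letters only. In RefSeq gene order Hspa1b, Hspa1a and the testis-type Hsp70 gene Hspa1l are direct neighbours.

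The inducible Hsp70 genes were 2.01-fold and 2.07-fold higher in positive cells by their 2 probesets, but did not pass the test, and most of the difference came from replicate 2. Probeset 10450367, which is annotated with both Hspa1a and Hspa1b, read 10.27, 12.06 and 11.01 in positive arrays 1, 2 and 3, against 10.23, 9.50 and 10.59 in negative arrays 1, 2 and 3. Positive array 2 was the highest of the 6 and negative array 2 the lowest, and the groups overlapped because positive array 1 lay below negative array 3. Probeset 10450369, annotated with Hspa1a alone, read 8.98, 10.47 and 9.91 in positive arrays, against 8.81, 8.13 and 9.26 in negative arrays, with the same order of arrays. No probeset lists Hspa1b alone, and the genes are near-identical copies, so their separate levels are uncertain.

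The shared probeset averaged 11.11 ± 0.90 over the 3 positive arrays and 10.10 ± 0.55 over the 3 negative arrays (± SD), a log2 difference of 1.01 (SE 0.49, 95% interval -0.17 to 2.19). The Hspa1a probeset averaged 9.79 ± 0.75 over positive and 8.73 ± 0.57 over negative arrays (± SD, n = 3 each), a log2 difference of 1.05 (SE 0.44, 95% interval -0.0015 to 2.10). Both had a limma adjusted p of 0.875, adjusted over all 35556 probesets. The differences ranked 394 and 364 among all probesets, and both belong to the 405 probesets (1.14%) whose positive mean was 2-fold above the negative mean or more. None of the 16 probesets and none of all 35556 (0%) passed an adjusted p of 0.05 with limma. At an unadjusted p under 0.05 there were 1946 probesets (5.47%), none of them among the 16. In the fit that blocks on replicate number, again 0 probesets (0%) passed. There 3584 (10.1%) had an unadjusted p under 0.05, again none of them among the 16.

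By same-numbered pair, the shared probeset differed by 0.04, 2.56 and 0.43 for numbers 1, 2 and 3, and the Hspa1a probeset by 0.17, 2.33 and 0.65. The sign was the same in all 3 pairs for both, as it was upward for 5858 of all probesets (16.5%), and the size in pair 2 was several times that in the others. Without positive array 2 the differences were 0.54 and 0.71, and without negative array 2 they were 0.71 and 0.75. With both replicate 2 arrays left out they were 0.24 and 0.41, and with array weights, which give deviating arrays less say, 0.33 and 0.44. The neighbour Hspa1l, chosen here for its position, differed by 0.09 (SE 0.13), with positive arrays at 6.20, 6.58 and 6.39 and negative arrays at 6.26, 6.26 and 6.37. In RNA from sorted populations, a higher level per cell and a larger share of cells with the transcript cannot be told apart.

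**Figure D1:**
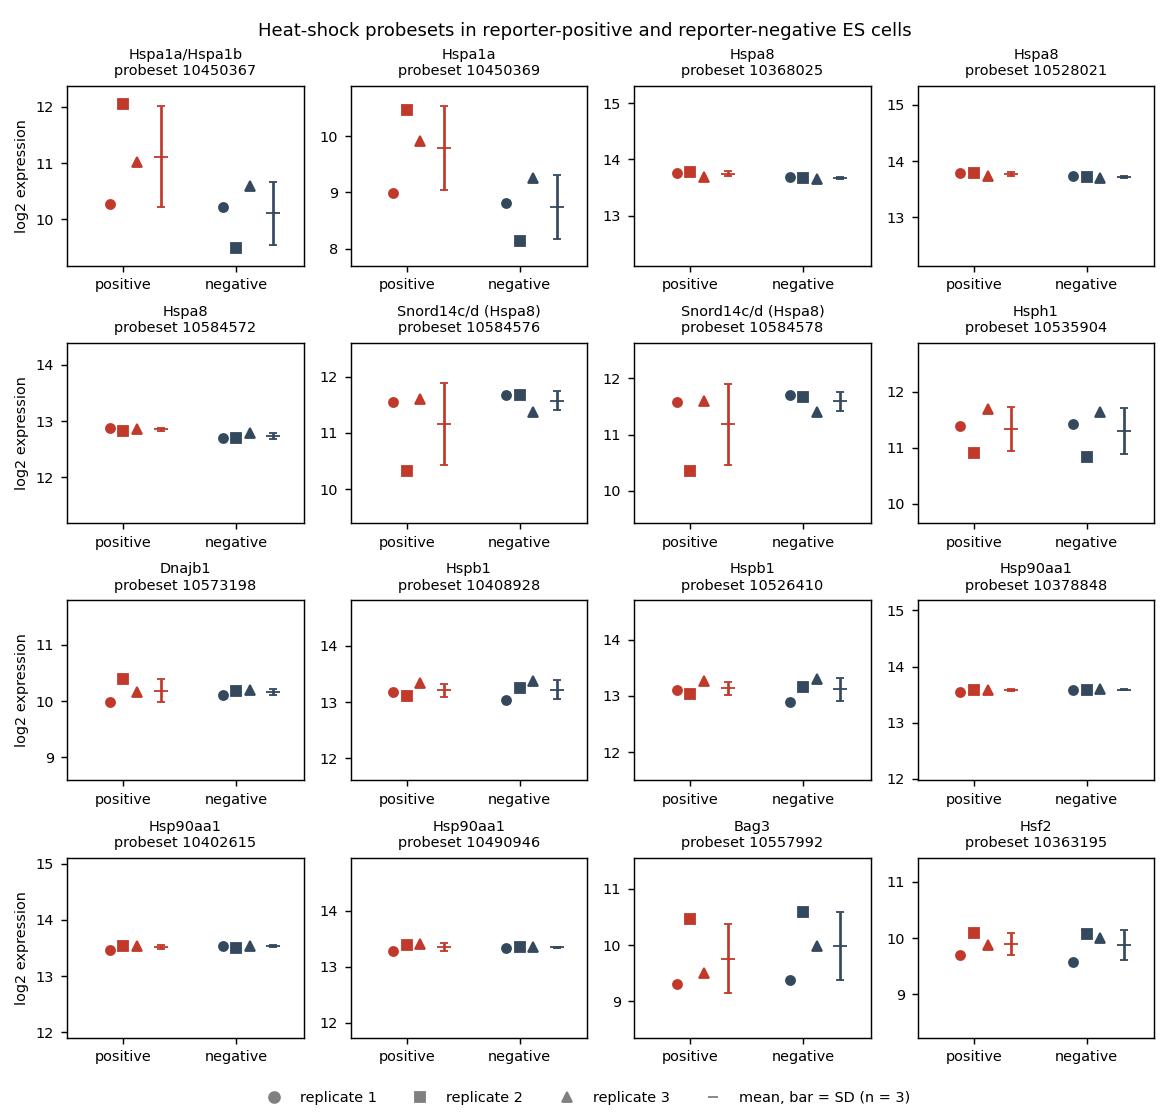
Log2 expression of the 16 heat-shock probesets in each array, with reporter-positive cells on the left and reporter-negative cells on the right of each panel; marker shapes give the replicate number, bars are mean ± SD (n = 3) and every panel spans 3.2 log2 units. The Hspa1 probesets are highest in positive array 2, the Snord14 probesets are lowest in it, Bag3 and Hsph1 separate by replicate number, and Hspa8 and Hsp90aa1 barely vary.

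The spread of the Hspa1 probesets was set beside the two-cell-stage genes, which mark the state that the reporter reports. Of 25 listed genes 16 were measured, and 15 of the 16 were higher without overlap, 93.8% against 4.08% of all 19938 genes. The exception was Eif1a, a translation initiation factor gene, at a log2 difference of -0.12. The genes of the list were picked from studies of this reporter and from earlier results of these arrays, so their direction is no independent evidence. The mean level of the 16 genes was 8.47, 11.19 and 7.45 in positive arrays 1, 2 and 3, against 6.09, 6.05 and 6.28 in negative arrays. The order of this mean among positive arrays was 2, then 1, then 3, while both Hspa1 probesets ran 2, then 3, then 1. Among negative arrays the mean and both Hspa1 probesets ran 3, then 1, then 2. Within pairs 1, 2 and 3 the list mean differed by 2.38, 5.14 and 1.16. The shared Hspa1 probeset differed by 0.04, 2.56 and 0.43, and the Hspa1a probeset by 0.17, 2.33 and 0.65. Pair 2 was thus the largest for all of them. The largest differences on the list were those of Gm5662 (5.34), Tdpoz3 (4.80) and Usp17la (3.93). Tdpoz3 and Usp17la belong to families with near-identical copies and Gm5662 may have similar copies too, so the values of single genes are uncertain.

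Among genes with a probeset of their own, those whose 6 array values lay closest to the shared Hspa1 probeset were Dppa3, 2210409E12Rik, Robo1, Gm10785 and Ttc30b. Closeness was the root mean square difference of deviations from each gene's own mean over the 6 arrays. It was 0.29 log2 units for Dppa3 (a maternal factor gene of the oocyte and early embryo), 0.32 for both 2210409E12Rik and Robo1, and 0.33 for both Gm10785 and Ttc30b. The second Hspa1 probeset, at 0.15, was closer than any of them. Dppa3 read 9.04, 10.64 and 9.23 in positive arrays, against 8.24, 8.32 and 9.07 in negative arrays. With 6 arrays and 19938 genes, close profiles are a description only.

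**Figure D2:**
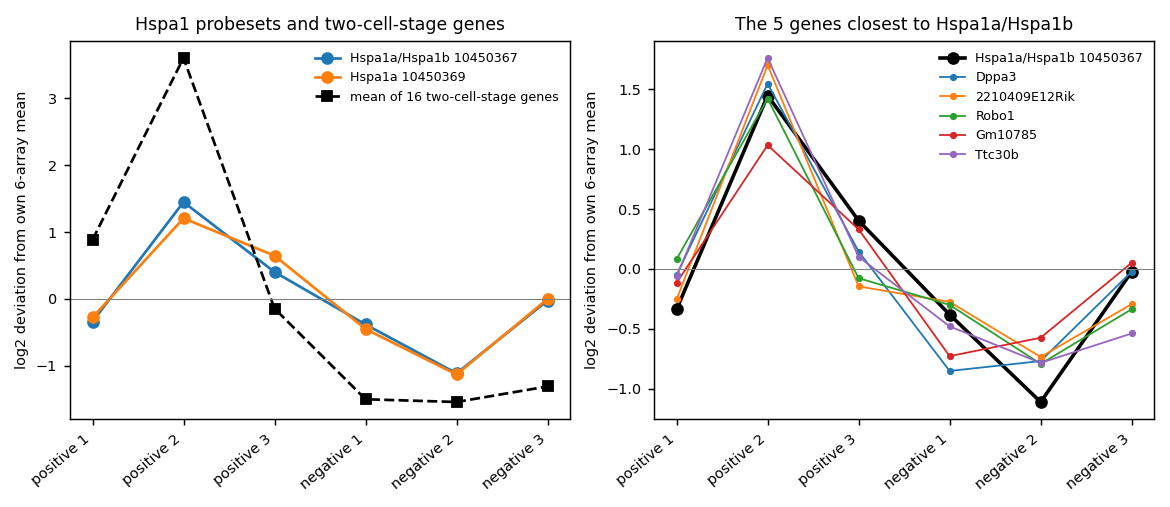
Log2 deviation from the own 6-array mean for the 2 Hspa1 probesets and the mean of 16 two-cell-stage genes (left), and for the shared Hspa1 probeset and its 5 closest genes (right); the x axis gives positive arrays 1 to 3 and then negative arrays 1 to 3. Positive array 2 is the highest point of every line, and the Hspa1 lines stand higher in positive array 3 than in positive array 1, unlike the two-cell-stage mean.

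Hspa8, the constitutive Hsp70 (Hsc70), was nearly constant over the 6 arrays. Its 3 probesets without other symbols differed by 0.05 to 0.11 on the log2 scale, upward in all 3 pairs for each, and did not pass. Hspa8, Hspb1 and Hsp90aa1 each have several probesets. Which locus each of them reads was not checked, so some may read similar copies. Probeset 10584572 read 12.87, 12.82 and 12.86 in positive arrays, against 12.71, 12.71 and 12.80 in negative arrays. It was the 1 probeset of the 16 that was higher without overlap between the groups, against 5.46% of all probesets, with a log2 difference of 0.11 (SE 0.10, limma adjusted p = 0.898). Probeset 10528021 read 13.79, 13.78 and 13.73 in positive arrays, against 13.74, 13.72 and 13.69 in negative arrays, and probeset 10368025 read 13.76, 13.77 and 13.69, against 13.69, 13.67 and 13.65. Each of these overlapped between the groups, by positive array 3. The highest value on any array was 14.49, so these probesets lie near the upper end of the scale, where differences on arrays can be compressed.

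A further 2 probesets list Hspa8 together with Snord14c and Snord14d, small nucleolar RNA genes that lie inside Hspa8, and the accessions behind them are those of the small RNAs. They behaved unlike the 3 probesets annotated with Hspa8 alone. Probeset 10584576 read 11.56, 10.32 and 11.60 in positive arrays, against 11.68, 11.68 and 11.37 in negative arrays, and probeset 10584578 read 11.59, 10.35 and 11.61, against 11.71, 11.68 and 11.40. Positive array 2 was low by itself, and the other 5 arrays lay close together. The log2 differences were -0.42 (SE 0.35) and -0.42 (SE 0.35), with a limma adjusted p of 0.900 for both. Without positive array 2 they were 0.0017 and -0.00059. In pair 2 the Snord14 probesets differed by -1.36 and -1.33, while the 3 probesets annotated with Hspa8 alone differed by 0.11, 0.07 and 0.11.

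Low values in positive array 2 were common among other small nucleolar RNA probesets. Of the 95 other probesets with a Snord or Snora symbol, 58 (61.1%) had their lowest value in positive array 2, against 30.7% of all probesets. Their median distance of that array from the mean of the other 5 was -0.74, against -0.08 over all probesets and -1.25 for the Snord14 probesets. The part of RNA quality or labelling in this was not tested.

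Hsp90aa1, the inducible cytosolic Hsp90, was likewise nearly constant. Its 3 probesets spanned 0.04, 0.07 and 0.13 log2 units over the 6 arrays, and their differences lay between -0.02 and 0.01. Probeset 10378848 read 13.56, 13.59 and 13.59 in positive arrays, against 13.59, 13.57 and 13.60 in negative arrays. The 95% interval of its difference was -0.23 to 0.21, and it too lies near the upper end of the scale. Hspb1 (Hsp25), the small heat-shock protein with 2 element matches shown above, read 13.18, 13.11 and 13.34 in positive arrays, against 13.04, 13.25 and 13.38 in negative arrays by probeset 10408928. Its difference of -0.01 (SE 0.13, 95% interval -0.33 to 0.30) and that of its second probeset 10526410, 0.02 (SE 0.14), did not exceed the spread between replicates.

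Dnajb1 (Hsp40), the J-domain partner of Hsp70, read 9.99, 10.40 and 10.17 in positive arrays, against 10.11, 10.18 and 10.20 in negative arrays. Positive array 2 was again the highest, and the pair differences were -0.12, 0.22 and -0.04 around a mean of 0.02 (SE 0.13). The 95% interval was -0.30 to 0.34, and the difference between Dnajb1 and the Hspa1 genes was not tested. Over the 16 probesets the median log2 difference was 0.01, against -0.03 over all probesets, and 10 of the 16 were higher, against 44.2% of all. With a second quantile normalization 7 of the 16 were higher, against 39.4% of all, and with single arrays left out the count ran between 6 and 12.

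**Figure D3:**
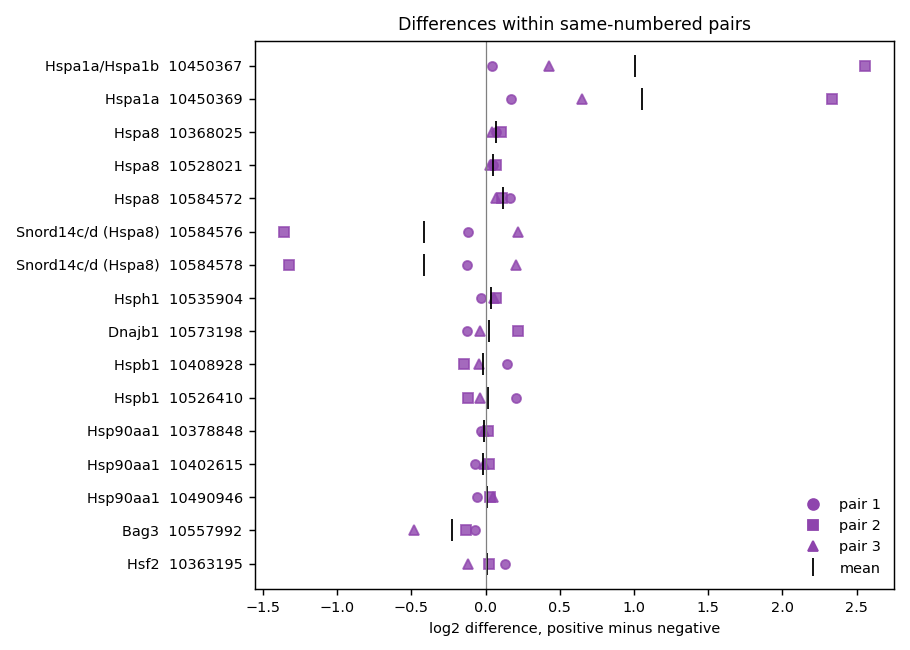
Log2 difference, positive minus negative, within each same-numbered pair (marker shapes) and their mean (black tick) for the 16 heat-shock probesets. The Hspa1 points of pair 2 stand at 2.56 and 2.33 and the Snord14 points of pair 2 at -1.36 and -1.33, while the other 12 probesets lie within 0.5 of 0 in every pair.

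Bag3, Hsph1 and Hsf2 had their highest or lowest level in replicate 2 of both groups. Bag3, the stress-inducible co-chaperone of selective autophagy, read 9.31, 10.45 and 9.51 in positive arrays 1, 2 and 3, against 9.38, 10.59 and 9.98 in negative arrays 1, 2 and 3. Both replicate 2 arrays stood above the other 4, by a mean of 0.97 on the log2 scale. Hsph1 (Hsp110) went the other way, with 11.39, 10.91 and 11.69 in positive arrays, against 11.42, 10.84 and 11.63 in negative arrays, and both replicate 2 arrays lay below the other 4, by 0.66. Hsf2, a heat-shock factor active in development and germ cells, read 9.70, 10.09 and 9.88 in positive arrays, against 9.57, 10.06 and 9.9998 in negative arrays. Both replicate 2 arrays stood above the other 4, by 0.29.

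A moderated F test of the replicate number, with the group in the same limma fit, gave adjusted p-values of 0.126 for Bag3, 0.130 for Hsph1 and 0.260 for Hsf2 over all 35556 probesets, of which 0 (0%) passed. In the table of 19938 genes with 1 probeset each, added after the data were seen, Bag3 (limma adjusted p = 0.0259) and Hsph1 (limma adjusted p = 0.0338) passed and Hsf2 (0.147) did not, among 1127 genes (5.65%) that passed. Bag3 and Hsph1 were 2 of the 8 heat-shock genes in that table. At an unadjusted p under 0.05 the Bag3, Hsph1 and Hsf2 probesets were the only 3 of the 16, a share close to the 17.8% of all probesets. Both replicate 2 arrays stood outside the other 4 for these same 3 of the 16, a smaller share than the 34.9% of all probesets. What the numbers mark is not given in the labels.

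Between positive and negative cells, Bag3 differed by -0.23 (SE 0.40, limma adjusted p = 0.965) and was lower in all 3 pairs, by 0.07, 0.13 and 0.48, as 21% of all probesets were. Without negative array 2 the sign turned, to 0.07, and without positive array 2 the difference was -0.58. Hsph1 differed by 0.03 (SE 0.27) with pairs at -0.03, 0.07 and 0.06; leaving out positive array 2 gave 0.24 and leaving out negative array 2 gave -0.19. For Hsf2 the difference was 0.01 (SE 0.18), which became -0.09 if positive array 2 was dropped and -0.14 if negative array 1 was. These SEs include the shift by replicate number. In the fit with the replicate block they were 0.12 for Bag3, 0.08 for Hsph1 and 0.10 for Hsf2. None of the 3 passed there either (limma adjusted p = 0.539, 0.890 and 0.968).

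Other gene lists also had their highest mean in replicate 2 of both groups. The mean of 16 immediate-early genes, which respond to stress and to cell dissociation, was 9.17, 9.46 and 9.12 in positive arrays, against 9.21, 9.91 and 9.30 in negative arrays. Fos, a transcription factor gene of this response, read 7.17, 9.33 and 7.01 in positive arrays, against 7.42, 10.25 and 7.62 in negative arrays. Serpinh1, the heat-inducible collagen chaperone, read 8.32, 9.74 and 8.63, against 8.70, 10.05 and 9.05. The mean of the 11 measured fibroblast genes of 12 listed was 6.72, 7.32 and 6.58, against 6.97, 7.43 and 7.08. Acta2, the gene of this list with the largest difference between the groups, read 8.20, 11.21 and 7.70, against 8.91, 11.82 and 9.85. It shifted far more than the mean of the list, so it does not stand for the other genes. Of the 11 fibroblast genes, 3 had an unadjusted p under 0.05 for the replicate number (limma moderated F test). This compares with 3899 of all 19938 genes and with 17.8% of all probesets. With adjustment over all probesets 0 of them passed. RMA values have no zero, so no marker can be called absent. The part of these genes or of other cells in the Bag3 and Hsph1 values was not tested.

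**Figure D4:**
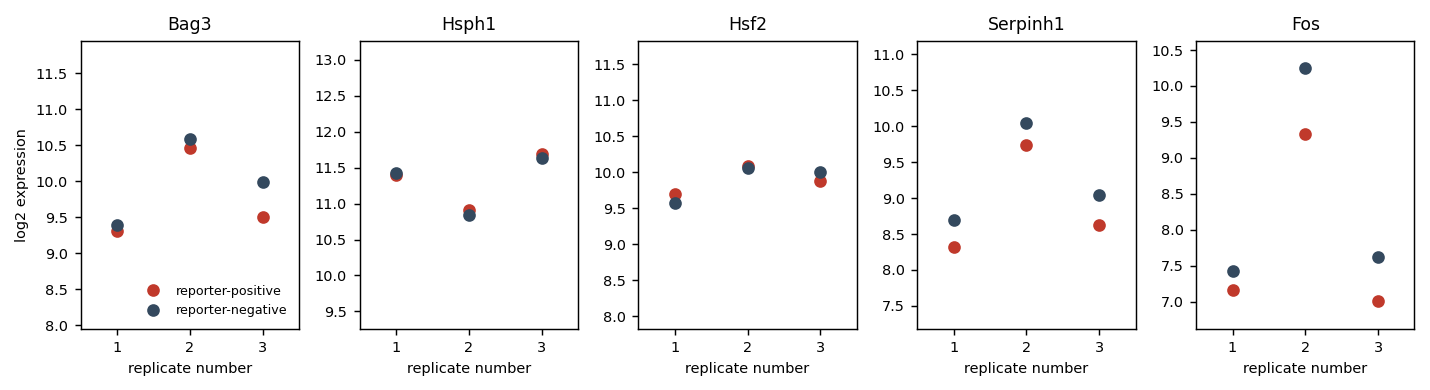
Log2 expression of Bag3, Hsph1, Hsf2, Serpinh1 and Fos by replicate number, with reporter-positive and reporter-negative arrays as separate points; every panel spans 4 log2 units. Bag3, Serpinh1 and Fos are highest and Hsph1 is lowest at number 2 in both groups.

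The rest of the chaperone network was read from 8 lists, in which no gene passed the test between positive and negative cells (limma, adjusted over all probesets). Values below are log2 differences. Unless stated otherwise, their SEs come from the fit without the replicate block, so they include the shift by replicate number. For 21 of the 23 genes named from these lists, all but Hsf4 and Cct2, leaving out 1 array made the difference more than 1.5 times smaller or turned its sign, and 6 of the 23 turned sign. The median over all 19938 genes was -0.04, with 39.8% of genes higher. The other J-domain genes were higher for 16 of 21 members (median 0.08), and 8 were higher in all 3 pairs, 38.1% against 15.1% of all genes. With a second quantile normalization the count fell to 12 of 21, 57.1% against 34.1%. The largest on the list were Dnajb4 (0.36, SE 0.22), a relative of Dnajb1, Dnajb9 (0.34, SE 0.22), a J-domain protein of the endoplasmic reticulum, and Dnajb13 (0.30, SE 0.23), a component of motile cilia and sperm tails. In the fit with the replicate block their SEs were 0.12, 0.20 and 0.10, and none of the 3 passed there either. Without positive array 2 Dnajb4 stood at 0.15 and Dnajb9 at 0.09, and in pair 3 Dnajb9 differed by -0.05.

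The other Hsp70 and Hsp110 genes were higher for 5 of 11 members (median -0.03), and for 3 of 11 with the second normalization or without positive array 2. Hspa12b stood at -0.26 (SE 0.16), the germ cell Hsp70 gene Hspa2 at 0.22 (SE 0.19), or 0.03 without positive array 2, and Hspa14 at -0.22 (SE 0.15). The Hsp90 family and its co-chaperones were higher for 7 of 16 (median -0.0069), a count that moved both ways: 4 of 16 with median centring and with the second normalization, 10 of 16 without positive array 2 and 11 of 16 without both replicate 2 arrays. Ppid, a cyclophilin that binds Hsp90, gave the largest difference at -0.29 (SE 0.20), which shrank to -0.08 if positive array 2 was dropped, the eighth on the list by size. Stub1, the ubiquitin ligase CHIP, differed by -0.13 (SE 0.16), or 0.01 without negative array 2, and Fkbp8 by -0.12 (SE 0.12). The small heat-shock proteins were higher for 2 of 8 (median -0.07), and for 0 of 8 without positive array 2, with Hspb7 at -0.22 (SE 0.13), Hspb9 at -0.20 (SE 0.16) and Cryab, an alpha-crystallin, at 0.17 (SE 0.39). Without positive array 2 Cryab stood at -0.16, and without negative array 1 Hspb9 stood at -0.05.

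The other nucleotide exchange factors were higher for 5 of 9 (median 0.02), and for 2 of 9 with the second normalization (22.2%, median -0.05). Bag2 stood at -0.36 (SE 0.29), or -0.04 without negative array 2, the mitochondrial Grpel1 at -0.18 (SE 0.20), or 0.00066 without positive array 2, and Bag6 at -0.07 (SE 0.10). The chaperonins, ring chaperones of the cytosol and mitochondria, were higher for 2 of 10 (median -0.03), and for 5 of 10 without positive array 2. Cct2 was lower without overlap, at 12.85, 12.85 and 12.90 in positive arrays, against 13.00, 12.98 and 13.06 in negative arrays, as 6.28% of all probesets were. It differed by -0.14 (SE 0.09), Cct8 by -0.13 (SE 0.13) and the mitochondrial Hspd1 (Hsp60) by -0.11 (SE 0.15), or -0.00039 without positive array 2.

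Among the other heat-shock factors and regulators, 3 of 5 were higher (median 0.02), and 2 of 5 with the second normalization (median -0.02). Hsf4, a heat-shock factor of the lens, read 6.92, 7.04 and 6.91 in positive arrays, against 7.36, 7.25 and 7.34 in negative arrays. It was lower without overlap, by a log2 difference of -0.36 (SE 0.10, limma adjusted p = 0.875), and its values lie close to the array medians of 6.95 to 7.04. With 1 array left out the difference stayed between -0.41 and -0.34. Hsf5 differed by 0.27 (SE 0.41) and Hsbp1, which binds heat-shock factors, by 0.08 (SE 0.19), and both changed sign when single arrays were left out (-0.02 to 0.70 for Hsf5, -0.11 to 0.20 for Hsbp1).

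Other heat-inducible genes, a list that shares members with those above, were higher for 10 of 22 (median -0.02) and for 13 of 22 if positive array 2 was left out. The farthest from 0 was Zfand2a (AIRAP), a proteasome-associated protein induced by arsenite and heat. It read 12.66, 13.15 and 11.94 in positive arrays, against 12.16, 11.50 and 11.67 in negative arrays, with positive array 2 the highest and negative array 2 the lowest of the 6, as for the Hspa1 probesets. The log2 difference of 0.81 (SE 0.33, limma adjusted p = 0.875) was 0.50, 1.65 and 0.27 in pairs 1, 2 and 3, and the groups overlapped. It was 0.52 if positive array 2 was left out. Serpinh1 differed by -0.37 (SE 0.47), which became -0.79 without positive array 2 and 0.02 without negative array 2, and Bag2 is given above.

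**Figure D5:**
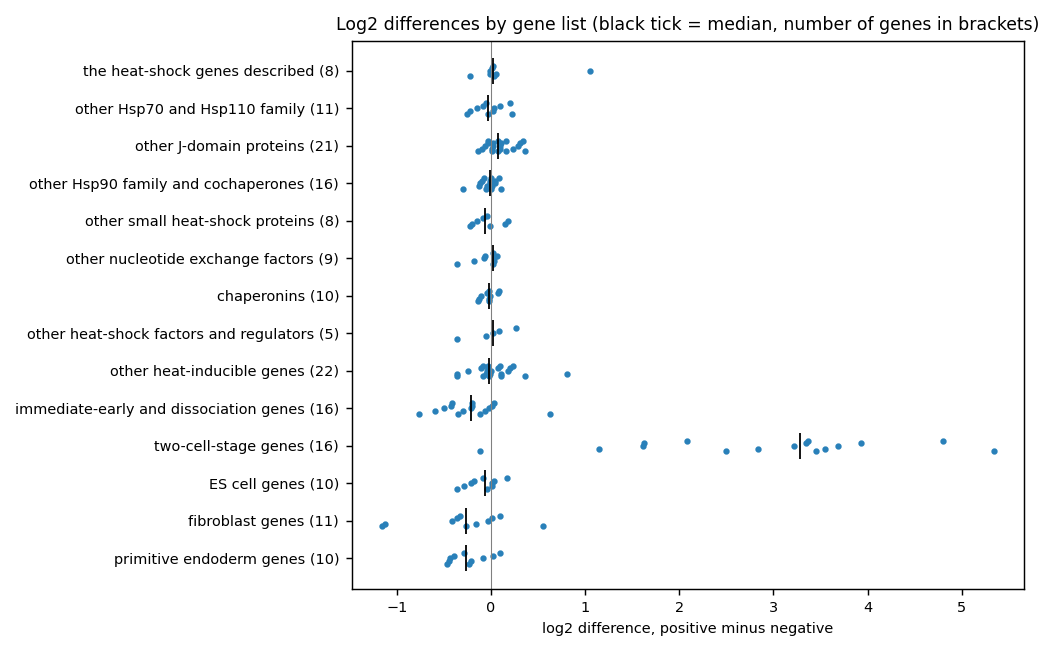
Log2 differences, positive minus negative, of the measured genes of each list (points, 1 probeset per gene) with the median as a black tick. The chaperone lists lie around 0 with Hspa1a at 1.05 and Zfand2a at 0.81 as their farthest points, while the two-cell-stage genes reach 5.34.

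Across the series, Pearson correlations between arrays were 0.961 to 0.992 over all probesets, and no array duplicated another. Kdm1a lay between 10.91 and 11.25 on the 6 arrays, and Pou5f1, an ES cell transcription factor gene, between 12.08 and 12.69. The mean of 10 ES cell genes was 12.10, 11.76 and 12.15 in positive arrays, against 12.18, 11.93 and 12.19 in negative arrays, and its largest differences were those of Esrrb (-0.36), Utf1 (-0.29) and Sox2 (-0.22). Of all 19938 genes 12012 were lower. Among immediate-early genes 13 of 16 were lower, with the largest differences in Fosb (-0.77), Btg2 (0.62) and Fos (-0.60). Among fibroblast genes 8 of 11 were lower, the largest being Acta2 (-1.16), Tagln (-1.13) and Thy1 (0.55). Among primitive endoderm genes 8 of 10 were lower, the largest being Gata4 (-0.46), Lama1 (-0.45) and Dab2 (-0.44). Without both replicate 2 arrays the counts lower were 10 of 16, 9 of 11 and 10 of 10, against 10716 of all 19938 genes. No gene of these lists or of the ES cell list passed the test.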

How the data were processed

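Log2 expression values, 1 column per sample, were used as deposited by the authors. The submitters' processing notes name RMA and Affymetrix Expression Console; RMA corrects background, normalizes quantiles and summarises each probeset on the log2 scale. For versions and the genome build, nothing was given in the sources used here. Symbols came from the platform annotation, which names 23410 of 35556 probesets (21789 with 1 symbol, 1621 with several). The remaining 12146, which may include control probesets, are unnamed here and stayed in the fit.

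The titles gave groups and replicate numbers. limma 3.58.1 (lmFit and eBayes, run in R 4.3.3) tested the difference between the groups, two-sided, and the replicate number, by a moderated F test; p-values were adjusted over all probesets by the Benjamini-Hochberg method, with a threshold of 0.05. The fits were tested on simulated data with independent noise in each array. For the group fit these data held no shift by replicate number, so they do not show how that fit fares with one. Errors are the SD over 3 arrays or the SE of the fit; the number of arrays limits the precision. The members and lists were chosen with earlier results of these data known. For lists, the brightest single-symbol probeset of a gene was used, and the 3 largest differences of each list were named. Eif1a, Kdm1a, Pou5f1 and Hspa1l were named after their values were seen.

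Deviations from the group mean correlated between same-numbered arrays at r = 0.41, 0.39 and 0.18 for numbers 1, 2 and 3, so the numbers were taken to pair the samples, from the data and not from the labels. The alternatives were the replicate block, arrays or pairs left out, median centring, a second quantile normalization, a filter on the dimmest 30%, named probesets only, array weights, an intensity trend and, added after seeing the data, 1 probeset per gene, single arrays left out for the replicate number and the list genes, and counts of higher probesets under other scalings.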

Additional observations from a re-analysis of the deposited data

How the results depend on the processing

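Between positive and negative cells, 0 probesets and 0 of the 16 heat-shock probesets passed limma under every alternative run, and so also under the replicate block, which pairs same-numbered arrays (count 0, smallest adjusted p 0.489, against 0.875 without it). Of 264 recomputed differences, 228 kept their sign and 36 turned it. The replicate block, the intensity trend, the filter on the dimmest probesets, named probesets only and 1 probeset per gene leave each difference unchanged. Differences under these settings could not turn, so the count of 228 overstates how stable the signs were. The Hspa1 probesets and those annotated with Hspa8 alone kept theirs throughout, with Hspa1 differences between 0.54 and 1.45 when 1 array was left out. With 1 array left out, Hsf2 ranged from -0.14 to 0.11, Dnajb1 from -0.086 to 0.12, Hsph1 from -0.19 to 0.24, Bag3 from -0.58 to 0.073, Hspb1 from -0.11 to 0.064 and -0.094 to 0.11, Hsp90aa1 from -0.016 to 0.0015, -0.030 to 0.0014 and -0.019 to 0.047, and the Snord14 probesets from -0.64 to 0.0017 and -0.63 to -0.00059. With both arrays of number 1 left out, Hsf2 was -0.047, Hspb1 10526410 -0.078, Hsp90aa1 10378848 0.0026 and Hsp90aa1 10402615 0.0068; of number 2, Hspb1 10408928 was 0.050, Hsp90aa1 10490946 -0.0031, 10378848 -0.022 and 10402615 -0.039, Dnajb1 -0.078 and the Snord14 probesets 0.052 and 0.040; of number 3, Hsp90aa1 10490946 was -0.015 and the Snord14 probesets -0.74 and -0.73. Signs also turned with array weights for Hsf2 (-0.11), Hsp90aa1 10490946 (-0.012), Hspb1 10526410 (-0.043), Hsph1 (-0.049) and Dnajb1 (-0.082), with a second quantile normalization for Hsf2 (-0.047), Hspb1 10526410 (-0.0051) and Dnajb1 (-0.022), and with median centring for Hsp90aa1 10490946 (-0.0021). The cause of these turns was not tested. The median over the 16 probesets (0.014) ranged from -0.016 to 0.051 with 1 array left out and was -0.012 with a second quantile normalization and -0.021 with array weights. For the replicate number, 531 probesets passed among named probesets only and 5 without both arrays of number 3, against 0 over all probesets. In the table of 1 probeset per gene 1127 passed (5.65%), 2 of them among the 8 heat-shock genes there. Fewer features were tested in the named and 1-per-gene settings, and also without the dimmest 30%, which gave 0. Why these counts differ was not tested. The number of arrays, and values near the top of the scale for Hspa8 and Hsp90aa1, limit what could be seen.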
